A study of Homo sapiens with 14 samples.

Results

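The comparison described here set CUTLL1 cells carrying a short hairpin against UTX beside CUTLL1 cells carrying a control hairpin against Renilla, a luciferase absent from human cells. CUTLL1 is a human T cell acute lymphoblastic leukaemia line, grown in suspension in RPMI medium, and the hairpins were delivered by retrovirus to both groups. The labels list 2 shUTX and 3 shRenilla samples of CUTLL1 among the 14 samples of the series, and the deposited table holds 1 pooled column of counts per hairpin. Genes were taken where either column held at least 50 counts, which left 16886 of the 55075 genes in the table. The same knockdown in CEM, another T cell leukaemia line of the series, is given beside it where it shows whether a value was shared, and 16791 genes met the same minimum there. CUTLL1 is a single line and the hairpin sequences were not used here.

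UTX is the protein of KDM6A, a demethylase that removes the repressive methyl marks of lysine 27 of histone H3 and sits in COMPASS-like complexes whose MLL subunits methylate lysine 4 of the same histone. JMJD3, the protein of KDM6B, has the same enzymatic activity outside those complexes, and Polycomb repressive complex PRC2 writes the mark that both remove. T cell leukaemias of this kind are commonly driven by NOTCH1 signalling, whose targets include HES1, DTX1, NRARP and MYC.

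The shUTX column held 101792401 counts and the smaller of the deposited shRenilla columns, which stands beside it in the table, held 144394369. A larger CUTLL1 shRenilla column of 258014046 counts was deposited beside another hairpin. It was at or above the smaller one for every gene, higher for 30048 genes and equal for 25027, so the difference, a remainder of 113619677 counts, is given as a second measure of the control. The remainder stood apart: protein-coding genes took 79.0% of the shUTX column, 81.8% of the smaller control column and 60.0% of the remainder, and small and other structural non-coding RNAs, RNase P RNA included, took 6.76%, 5.67% and 24.0% in the same order. The T lineage markers were all measured, with a summed level of 4440 CPM (counts per 1000000 counts of the column) in shUTX cells and 4670 CPM in shRenilla cells. Markers of B, myeloid, NK, erythroid and fibroblast cells summed to 3.54 to 34.2 CPM in shUTX cells and to 4.02 to 29.3 CPM in shRenilla cells. MS4A1, VPREB1, PAX5, CD33, S100A8, S100A9, FCGR3A, NCR1, HBB and THY1 were at 0 in both columns. Others were measured: 3 of 10 B, 4 of 10 myeloid, 2 of 8 NK, 1 of 7 erythroid and 2 of 8 fibroblast markers. In shUTX and shRenilla cells NCAM1 had 1690 and 1998 counts, NKG7 1726 and 2155, and CD68 1497 and 1130. EPOR had 1758 and 1870, DCN 542 and 866, and CD14 8 and 52. Since each hairpin had 1 pooled value, no test could be made within CUTLL1, and the 95% intervals given (exact Clopper-Pearson) cover counting error only, with PCR copies counted as reads.

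The targeted gene was lower. KDM6A had 1962 counts in shUTX cells and 6215 in shRenilla cells, or 19.3 CPM and 43.0 CPM. The log2 ratio of shUTX over shRenilla, scaled by the trimmed mean of M values (TMM) after adding 2 counts to each, was -1.13 (interval -1.20 to -1.05). The ratio kept its direction against the larger control column (-1.06) and against the remainder, where KDM6A stood at 26.5 CPM (-0.95). In CEM it was -1.36, from 3646 counts in shUTX cells and 14169 in shRenilla cells. KDM6A was the only gene with at least 1000 counts in either column that was 2-fold lower in CUTLL1 shUTX cells. In pooled RNA, less RNA per cell and fewer cells with the RNA cannot be told apart.

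The related demethylase KDM6B was higher, at 28.2 CPM in shUTX cells against 21.5 CPM in shRenilla cells, a log2 ratio of 0.42 (0.35 to 0.49). It was 0.40 against the remainder and -0.02 in CEM. The other 11 members of the H3K27 demethylase and PRC2 list lay between -0.16 for PHF1 and 0.28 for PHF19, both accessory PRC2 subunits. The catalytic subunits EZH2 and EZH1 were at -0.12 and -0.09. None of the 18 COMPASS members was 1.5-fold apart, and 13 were below 0. Over all genes 3.47% were 1.5-fold higher and 2.28% lower. WDR5, a core subunit of all COMPASS complexes, was furthest at -0.46, followed by HCFC1 at -0.39. Of 19 other JmjC and LSD1 demethylases 1 was 1.5-fold higher: KDM5B, which removes methyl marks of lysine 4. It stood at 179 CPM in shUTX cells and 103 CPM in shRenilla cells (0.83, 0.80 to 0.86), and its CEM ratio was 0.20. In the remainder KDM5B stood at 31.9 CPM, a log2 ratio of remainder over smaller control of -1.16.

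**Figure D1:**
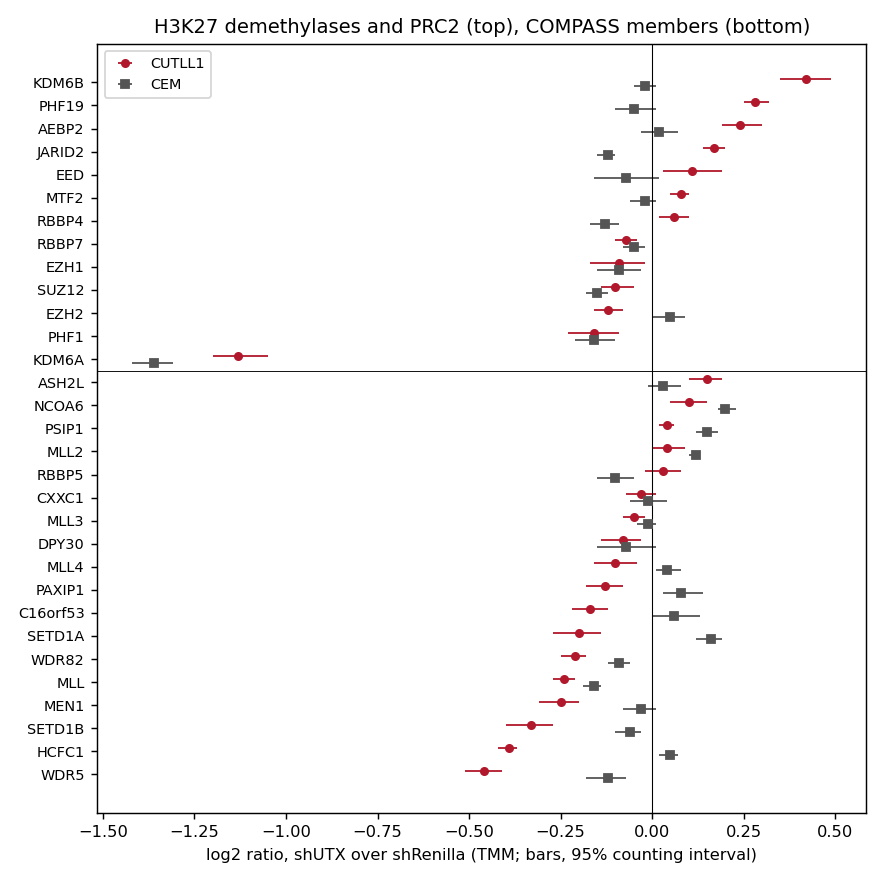
Horizontal axis, log2 ratio of shUTX over shRenilla (TMM); each row is a gene, with CUTLL1 as red circles and CEM as grey squares and bars for 95% counting intervals. KDM6A lies at -1.13 in CUTLL1 and -1.36 in CEM, apart from the other members, which lie between -0.46 and 0.42 in CUTLL1.

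Most of the transcriptome differed little. The log2 ratios of the 16886 genes had a median of -0.02 and an interquartile range of -0.16 to 0.15, and 78.9% lay within 1.25-fold. At 2-fold or more, 115 genes were higher (0.681%) and 37 were lower (0.219%) in shUTX cells, and at 1.5-fold or more 586 were higher (3.47%) and 385 were lower (2.28%). Low counts made up most of the 2-fold differences: 72 of the 115 higher genes and 29 of the 37 lower genes had fewer than 200 counts in the larger of both columns. Among genes with at least 1000 counts, 0.133% of 10517 were 2-fold apart, against 3.14% of 3214 genes below 200 counts. All 152 intervals excluded a ratio of 0, but the intervals of 31 higher and 6 lower genes lay wholly beyond 2-fold. Of the 115 higher genes 79 were protein coding and 28 were long non-coding, and of the 37 lower genes 16 and 10 were.

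**Figure D2:**
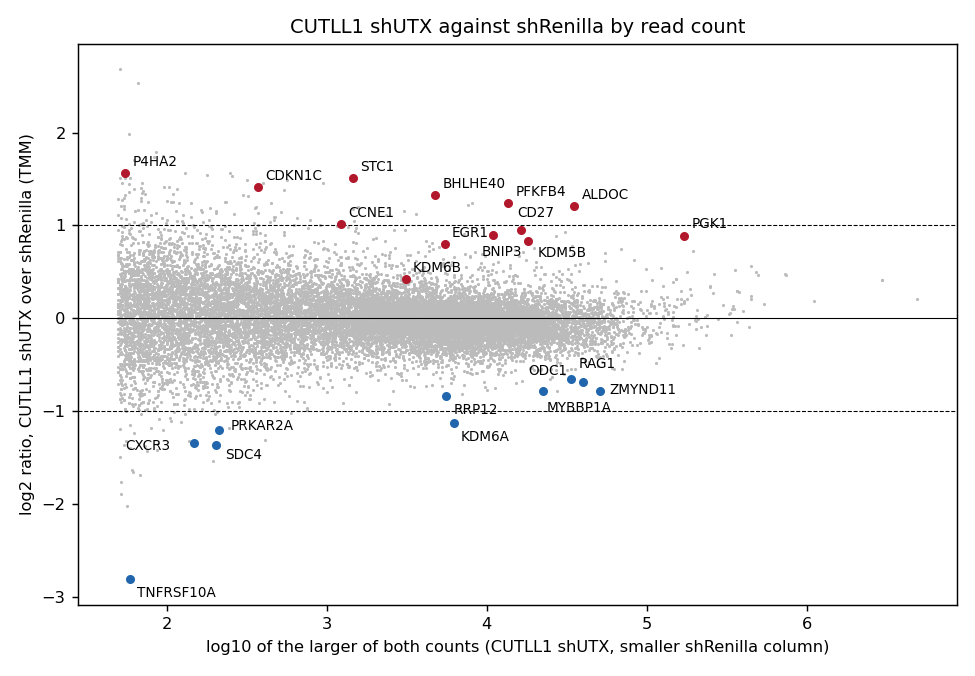
Horizontal axis, log10 of the larger of both counts; vertical axis, log2 ratio of shUTX over shRenilla in CUTLL1 (TMM), each grey point a gene with at least 50 counts and dashed lines at 2-fold. Named genes are red where higher and blue where lower in shUTX cells; ALDOC and PFKFB4 stand above 2-fold at 35110 and 13586 counts in shUTX cells, and KDM6A stands below.

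The parts of the control differed from each other in more genes than the hairpins did. Among all 16886 genes the remainder was at least 2-fold below the smaller control column for 8.04% and at least 2-fold above it for 8.11%. For the 115 higher genes these counts were 47 and 18, with a median log2 ratio of remainder over smaller column of -0.51, and for the 37 lower genes they were 10 and 3, with a median of -0.17. Of the 115 higher genes 80 were also 2-fold higher against the remainder, and of the 37 lower genes 19 were 2-fold lower. Both ratios hold the same shUTX counts, so this overlap is partly built in. Many genes outside these sets were 2-fold apart against the remainder too, as counted in the section on processing. The part of the control libraries in these ratios was not tested.

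Hypoxia genes were higher together in CUTLL1 shUTX cells. HIF transcription factors, stabilised when oxygen is low, drive glucose uptake, glycolysis, mitophagy receptors and collagen prolyl hydroxylases, binding short elements built on ACGTG or GCGTG. Of 30 measured hypoxia genes outside glycolysis 13 were 1.5-fold higher and none was lower, with a median of 0.53, and of 24 glycolysis and glucose transport genes 10 were 1.5-fold higher and none was lower, with a median of 0.48; no gene is in both lists. The shares of 43.3% and 41.7% stand beside 3.47% of all genes and an all-gene median of -0.02.

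The upstream bases of the 4 members with the highest ratios are printed because HIF elements lie in such windows; these genes were picked after their ratios were known. Each sequence is the 250 bases before the gene's start on its own strand, from RefSeq GRCh38.p14, with ACGTG and GCGTG on either strand in capitals (CACGT and CACGC on the printed strand). They are P4HA2 at chr5:132227092-132227341 on the minus strand, BHLHE40 at chr3:4979187-4979436 on the plus strand, PFKFB4 at chr3:48556804-48557053 on the minus strand and ALDOC at chr17:28576896-28577145 on the minus strand. A palindromic CACGTG counts once on each strand, which gives 4 matches in BHLHE40, 1 in PFKFB4, 5 in ALDOC and 0 in P4HA2.
P4HA2: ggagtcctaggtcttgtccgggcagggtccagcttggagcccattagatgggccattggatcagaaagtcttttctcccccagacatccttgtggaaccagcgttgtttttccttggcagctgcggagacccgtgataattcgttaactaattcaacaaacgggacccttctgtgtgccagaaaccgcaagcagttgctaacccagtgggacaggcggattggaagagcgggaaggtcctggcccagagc
BHLHE40: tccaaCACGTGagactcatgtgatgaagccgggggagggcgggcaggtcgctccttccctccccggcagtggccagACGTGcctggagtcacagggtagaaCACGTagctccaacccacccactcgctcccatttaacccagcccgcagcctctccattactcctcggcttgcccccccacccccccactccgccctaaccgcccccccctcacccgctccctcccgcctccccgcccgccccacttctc
PFKFB4: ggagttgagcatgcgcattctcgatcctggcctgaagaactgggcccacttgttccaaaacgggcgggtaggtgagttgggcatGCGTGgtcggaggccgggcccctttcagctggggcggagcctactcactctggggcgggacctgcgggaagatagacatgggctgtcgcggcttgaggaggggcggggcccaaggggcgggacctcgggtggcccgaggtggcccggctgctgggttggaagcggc
ALDOC: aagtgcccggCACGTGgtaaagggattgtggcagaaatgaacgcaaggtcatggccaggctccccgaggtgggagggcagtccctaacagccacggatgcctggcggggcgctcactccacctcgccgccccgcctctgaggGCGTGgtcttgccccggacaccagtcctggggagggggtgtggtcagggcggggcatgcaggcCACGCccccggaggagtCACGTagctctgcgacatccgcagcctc

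Of the 23 genes 1.5-fold higher, 19 had a RefSeq promoter, and 15 of these held a match (78.9%) and 10 held at least 2 (52.6%). Among 27305 RefSeq promoters of the same length 43.1% held a match and 19.5% at least 2, and among 10058 promoters of measured protein-coding genes 57.4% and 29.1% did. The 23 genes came from lists of hypoxia and glycolysis genes, so a higher share of matches could follow from the lists alone. Members of these lists that were not higher were not compared, and a link to the hairpin was not tested. A match is a description of the letters in the window and shows no binding.

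Outside glycolysis the members range from regulators and secreted peptides to mitochondrial and collagen-modifying proteins. BHLHE40, a transcriptional repressor, stood at 46.8 CPM in shUTX cells, 19.1 CPM in the smaller control and 0.246 CPM in the remainder, a log2 ratio of 1.33 (1.26 to 1.40) against the smaller control and -0.10 in CEM. ADM, which encodes the vasodilator peptide adrenomedullin, had 470 counts in shUTX cells, 327 in the smaller control and 2 in the remainder (1.06), with a CEM ratio of -0.94. The shUTX value was the highest of the 3 columns for both genes. BNIP3, a mitophagy receptor, stood at 107 CPM in shUTX cells and 58.5 CPM in shRenilla cells (0.90, 0.86 to 0.94), and its relative BNIP3L at 422 CPM and 284 CPM (0.60). The collagen prolyl hydroxylase subunit P4HA1 stood at 339 CPM in shUTX cells and 214 CPM in shRenilla cells (0.70, 0.67 to 0.72). P4HA2 had the highest ratio of the group, 1.56, but from 55 counts in shUTX cells and 26 in shRenilla cells, with an interval of 0.92 to 2.35. STC1, a secreted glycoprotein that was not on these lists, was among the highest of all genes with at least 200 counts, with 1464 counts in shUTX cells, 745 in the smaller control and 4 in the remainder (1.51, 1.38 to 1.64).

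Glycolysis was represented from uptake to lactate export. PFKFB4, which makes the activator of phosphofructokinase, stood at 133 CPM in shUTX cells and 57.7 CPM in shRenilla cells (1.24, 1.20 to 1.28). ALDOC, an aldolase, stood at 345 CPM in shUTX cells and 152 CPM in shRenilla cells (1.21, 1.19 to 1.24); its exons overlap the non-coding gene RP11-192H23.5 (1.24), and the reads of both cannot be told apart here. PGK1 stood at 1680 CPM in shUTX cells and 925 CPM in shRenilla cells (0.89), and GPI at 1900 CPM and 1180 CPM (0.72). The uptake and export members SLC2A1, SLC2A3 and SLC16A3 had ratios of 0.60, 0.68 and 0.67, and hexokinase HK2 had 0.62. Members that missed 1.5-fold included ENO1 (0.57), LDHA (0.42), TPI1 (0.43), GAPDH (0.21) and PGAM1 (0.22), and SLC16A1 was lowest at -0.18. HIF1A itself stood at -0.04.

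The size of this group's ratios depended on the control column. The remainder was below the smaller control for 22 of the 23 genes 1.5-fold higher, at least 2-fold below for 18, with log2 ratios of remainder over smaller column from -5.65 to 0.16. The medians over all measured members of that ratio were -1.70 for hypoxia and -0.64 for glycolysis. All but 1 of the 23 genes were 1.5-fold higher against the remainder. That ratio holds the shUTX counts by which the 23 were picked, and the remainder was already lower for most of them. It is therefore no separate check. GAPDH, TPI1 and PGAM1 turned the other way against the remainder, at -2.25, -2.08 and -4.0. In CEM, whose control column is separate, 18 of the 23 were above 0 and 5 were 1.5-fold higher. Their CEM ratios ran from -0.94 for ADM to 3.59 for P4HA2, with MIR210HG at 2.66. Of the 30 hypoxia genes 6 were 1.5-fold higher in CEM and 1 lower, with a median of 0.09. Of the 24 glycolysis genes 1 was higher and 0 were lower, with a median of 0.15. Among all CEM genes 3.44% were higher and 3.87% lower.

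**Figure D3:**
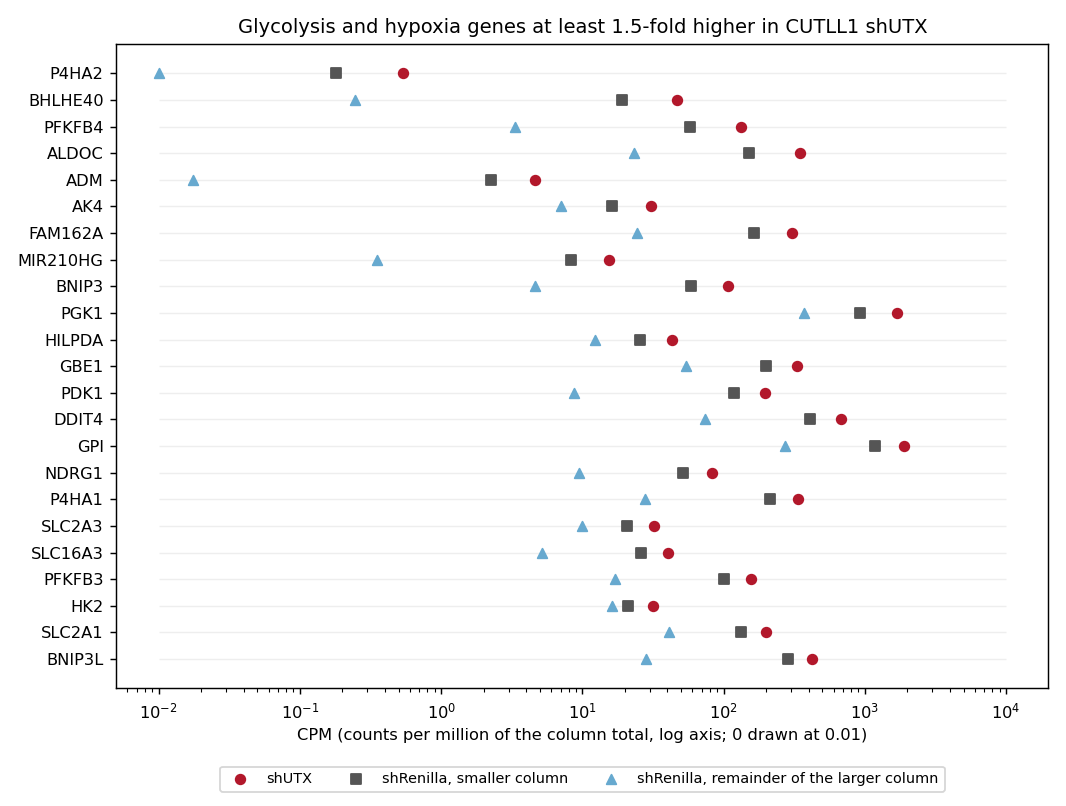
Horizontal axis, CPM on a log scale with values of 0 drawn at 0.01; rows, the 23 glycolysis and hypoxia genes 1.5-fold higher in CUTLL1 shUTX cells, with red circles for shUTX, grey squares for the smaller shRenilla column and blue triangles for the remainder of the larger one. The red circle lies highest on every row and the blue triangle lowest; BHLHE40 reads 46.8, 19.1 and 0.246 CPM.

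**Figure D4:**
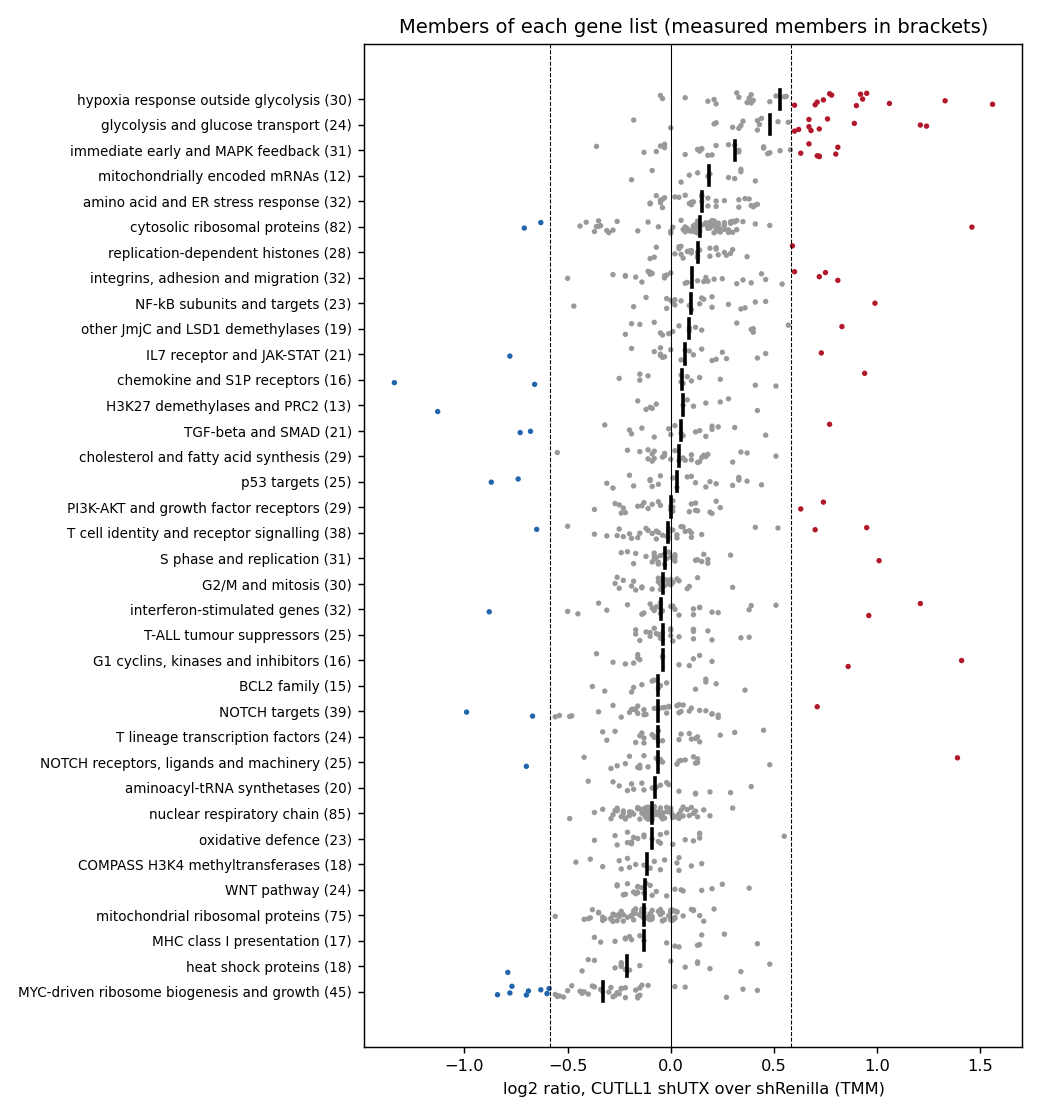
Horizontal axis, log2 ratio of shUTX over shRenilla in CUTLL1 (TMM); rows, gene lists with at least 10 measured members, each point a member, black bars the median and dashed lines 1.5-fold. Hypoxia (0.53), glycolysis (0.48) and immediate early genes (0.31) have the highest medians and the MYC-driven growth genes (-0.33) the lowest.

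MYC-driven ribosome biogenesis and growth genes were lower. Of 45 measured members 8 were 1.5-fold lower (17.8%, against 2.28% of all genes), none was higher and 40 were below 0, with a median of -0.33. RRP12, a ribosome export factor, had 2149 counts in shUTX cells and 5597 in shRenilla cells, or 21.1 CPM and 38.8 CPM (-0.84, -0.92 to -0.77). MYBBP1A, a nucleolar protein, stood at 88.2 CPM in shUTX cells and 155 CPM in shRenilla cells (-0.78, -0.82 to -0.75). ODC1, the rate-limiting enzyme of polyamine synthesis, stood at 166 CPM in shUTX cells and 275 CPM in shRenilla cells (-0.69). MRTO4 and RRP9, both ribosome assembly factors, were at -0.77 and -0.70, and NME1, whose exons overlap NME2, at -0.63. These genes were also lower against the remainder, with a list median of -0.81. That ratio holds the same shUTX counts, and the list median of remainder over smaller control was 0.4. LDHA (0.42), EIF4A1 (0.35) and FBL (0.27) went the other way against the smaller control. MYC itself stood at 436 CPM in shUTX cells and 489 CPM in shRenilla cells (-0.13). The same list had a CEM median of 0.03 over 46 measured members, and MYBBP1A and ODC1 stood at -0.03 and 0.05 there. Mitochondrial ribosomal proteins had a median of -0.13 with none of 75 members 1.5-fold apart. Cytosolic ribosomal proteins had a median of 0.14 against the smaller control, which turned to -1.26 against the remainder.

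Immediate early and MAPK feedback genes, which respond within minutes to growth signals, were higher for 7 of 31 measured members (22.6%, against 3.47% of all genes), with none lower and a median of 0.31. EGR1, a zinc finger transcription factor, stood at 53.6 CPM in shUTX cells, 31.4 CPM in the smaller control and 3.55 CPM in the remainder (0.80, 0.75 to 0.86), and its CEM ratio was 0.86. FOS stood at 43.0 CPM in shUTX cells and 26.6 CPM in shRenilla cells (0.72), and FOSB had the same ratio of 0.72. The feedback inhibitor SPRY1 was at 0.81. In CEM the list had a median of -0.11, with 2 of 29 members 1.5-fold higher and 2 lower.

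NOTCH genes lay close to 0 as a group. Of 39 measured NOTCH targets 1 was 1.5-fold higher and 2 were lower, with a median of -0.06 and 25 below 0. The shares of 2.56% and 5.13% stand beside 3.47% and 2.28% of all genes. The higher target, NDRG1 (0.71), is also on the hypoxia list. Against the remainder 13 of the same members were below 0 and the median was 0.19. The NOTCH effectors DTX1, a ubiquitin ligase, and NRARP, a feedback inhibitor, were the clearest at high counts: DTX1 stood at 281 CPM in shUTX cells and 417 CPM in shRenilla cells (-0.54), and NRARP at 138 CPM and 197 CPM (-0.48). DTX1 had a CEM ratio of -0.12, and NRARP was under the 50-count minimum in CEM. HES5 and HEY1, basic helix-loop-helix repressors, were at -0.56 and -0.49 and HES1 was at 0.23. HEY1 turned to 0.84 against the remainder. RHOU (-0.99) and HEY2 (-0.67) passed 1.5-fold at 24 and 47 counts in shUTX cells, and both turned positive against the remainder. Among 25 receptors, ligands and machinery genes the glycosyltransferase LFNG was at 1.39 (63 counts in shUTX cells and 34 in shRenilla cells) and the ligand DLL1 at -0.70; against the remainder they were at -0.21 and 2.37.

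T cell identity genes were mostly flat against the smaller control, with 2 of 38 members 1.5-fold higher and 1 lower. These shares of 5.26% and 2.63% stand beside 3.47% and 2.28% of all genes. CD27, a costimulatory receptor, stood at 159 CPM in shUTX cells and 84.4 CPM in shRenilla cells (0.95, 0.92 to 0.98). THEMIS, a T cell receptor signalling adaptor, stood at 539 CPM and 339 CPM (0.70). In the remainder CD27 stood at 54.2 CPM and THEMIS at 114 CPM. Their log2 ratios of remainder over smaller control were -0.11 and -1.05, and their CEM ratios were 0.26 and -0.25. CD27 overlaps CD27-AS1 and TAPBPL. RAG1, the recombinase gene, whose exons overlap RAG2, stood at 145 CPM in shUTX cells and 233 CPM in shRenilla cells (-0.65) and had a CEM ratio of -0.35. It stood at 111 CPM in the remainder, where its ratio was -0.09. None of 24 T lineage transcription factors, 25 leukaemia tumour suppressors or 15 BCL2 family members was 1.5-fold apart. Cell cycle lists stayed near 0 against the smaller control, with medians of -0.03 for S phase and -0.04 for mitosis (0.47 against the remainder), but CCNE1, cyclin E, had 1234 counts in shUTX cells and 887 in shRenilla cells (1.01, 0.89 to 1.14). It was at 1.08 in CEM and -0.06 against the remainder. CDKN1C, a cyclin-dependent kinase inhibitor, was at 1.41 (375 counts in shUTX cells and 204 in shRenilla cells); it was under the 50-count minimum in CEM. Among 25 p53 targets FAS (-0.87, but 0.83 against the remainder) and AEN (-0.74) were lower, a share of 8.0%. Among 32 interferon-stimulated genes EPSTI1 (1.21) and IFIT1 (0.96) were higher (6.25%) and OAS2 (-0.88) lower (3.12%).

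The highest protein-coding genes with at least 200 counts, beside STC1, were FAM115C (1.57), CACNB4 (1.53), a calcium channel subunit, and RELN (1.49), an extracellular glycoprotein with 319 counts in shUTX cells, 164 in the smaller control and 0 in the remainder. The lowest were SDC4 (-1.36), a cell surface proteoglycan with 53 counts in shUTX cells and 203 in shRenilla cells, and PRKAR2A (-1.20), a regulatory subunit of protein kinase A with 63 counts in shUTX cells and 214 in shRenilla cells. SDC4 was at 0 counts in the remainder. Among genes above 100 CPM, ZMYND11, a reader of histone methylation, stood at 201 CPM in shUTX cells and 353 CPM in shRenilla cells (-0.78).

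A minority of the CUTLL1 differences was shared at 1.5-fold in CEM. In CEM 0.852% of genes were 2-fold higher and 1.17% lower, and 3.44% were 1.5-fold higher and 3.87% lower. Over the 15153 genes measured in both lines, which share no column, the Pearson correlation of the ratios was 0.16 and the Spearman correlation 0.15, across genes that are not independent. At 1.5-fold, 60 genes were higher in both lines, 14.9% of the 404 higher in CUTLL1 and 16.1% of the 372 higher in CEM, and 20 were lower in both, 8.1% of the 247 lower in CUTLL1 and 5.06% of the 395 lower in CEM. The shares of 14.9% and 8.1% lay above the 3.44% higher and 3.87% lower among all genes measured in CEM. Those bases include genes not measured in CUTLL1. Another 27 were higher in CUTLL1 and lower in CEM and 7 the reverse. The 27 of 404 were also a larger share than the 395 of 15153 lower in CEM. Genes higher in CUTLL1 were thus more often apart in CEM in both directions. Of the 75 genes 2-fold higher in CUTLL1 that were measured in CEM, 54 had the same direction and 20 were 1.5-fold higher there. For the 16 lower ones these counts were 12 and 4.

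Genes apart in both lines included KDM6A. NEGR1, a neuronal adhesion molecule, was at -0.91 in CUTLL1 (138 counts in shUTX cells and 380 in shRenilla cells) and -1.46 in CEM, and the chemokine receptor CXCR3 at -1.34 and -0.82. TNFRSF10A, a death receptor, had 4 counts in CUTLL1 shUTX cells and 59 in shRenilla cells (-2.81, -5.27 to -1.91) and -1.51 in CEM. Against the remainder of the CUTLL1 control NEGR1 and TNFRSF10A turned positive, at 1.72 and 0.26. Higher in both were HSPG2, the basement membrane proteoglycan perlecan (1.40 in CUTLL1 and 1.91 in CEM), PPFIA4 (0.98 and 2.25), AK4, a mitochondrial adenylate kinase (0.95 and 1.90), and P4HA2 (1.56 and 3.59).

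**Figure D5:**
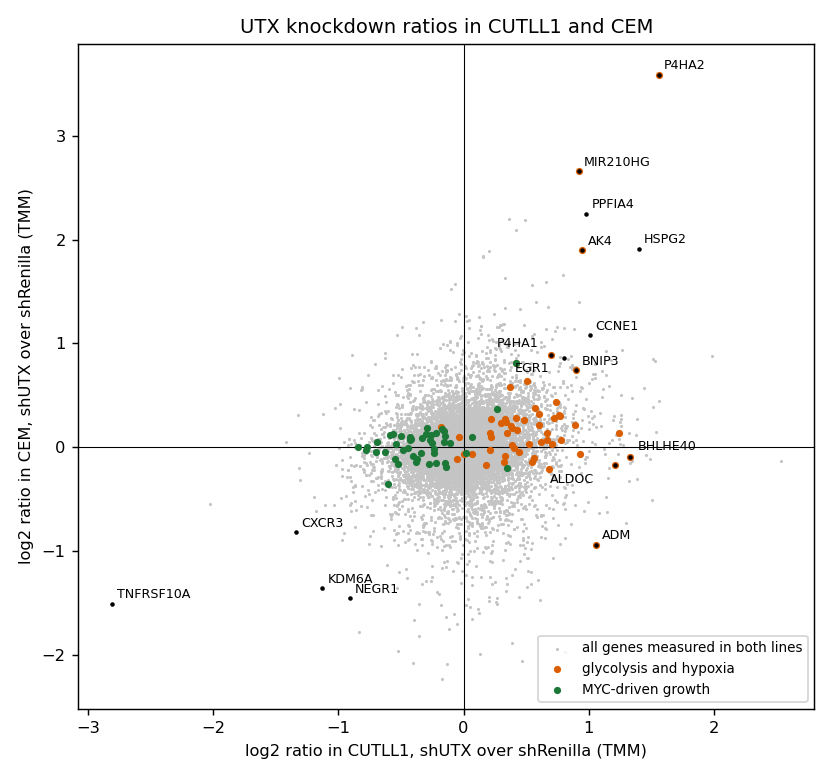
Horizontal axis, log2 ratio of shUTX over shRenilla in CUTLL1; vertical axis, the same ratio in CEM (TMM), for 15153 genes with at least 50 counts in either column of each line (grey). Glycolysis and hypoxia genes (orange) lie mostly right of 0 with CEM medians of 0.15 and 0.09, MYC-driven growth genes (green) lie mostly left of 0 at a CEM median of 0.03, and KDM6A lies low in both lines.

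The lines were the only replicates of the hairpin contrast, so a test was made across them. edgeR's quasi-likelihood test with the line as a term, over the 6 pooled columns of the series (a JMJD3 hairpin included) and 2 residual degrees of freedom, called 0 of 23112 genes (0%) at a Benjamini-Hochberg adjusted p under 0.05, with 39 at an unadjusted p under 0.05. With no difference at all, a share near 0.05 of the genes would pass that unadjusted threshold, and 39 genes are far fewer. The 0 calls are therefore no evidence that the lines share no difference. KDM6A had an unadjusted p of 0.00111 and an adjusted p of 1 by edgeR. DESeq2 called 4 of 39896 genes (0.01%), KDM6A among them (log2 ratio -1.23, adjusted p = 0.00142). The others were RP11-887P2.3, RNU1-2 and RP11-3P17.4, with extreme log2 ratios of -29.99, -22.36 and 22.81. These 3 had no value in the 6-column edgeR fit, which left out genes with low counts. Without that filter the 6-column edgeR fit called 0 of 39896 genes. A fit on the 4 shUTX and shRenilla columns, with 1 residual degree of freedom, called 16 of 22305 genes (0.0717%) by edgeR. KCNK17 (adjusted p = 0.000218), KDM6A (0.000333) and SDK2 (0.000715) came first. EGR1 (0.00825), BNIP3 (0.00957), P4HA1 (0.0123), CCNE1 (0.0243) and NEGR1 (0.0289) were among the rest. By edgeR on all 6 columns the unadjusted p was 0.0151 for KCNK17, 0.0341 for SDK2 and 0.0236 for EGR1. It was 0.51 for BNIP3, 0.472 for P4HA1, 0.0505 for CCNE1 and 0.143 for NEGR1.

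In the authors' deposited table, a DEGseq comparison of these columns, 7806 genes carried the signature mark, 2706 higher and 5100 lower, at p under 0.001. Of these 5396 lay within 1.25-fold by the TMM ratio. The authors' deposited table gave KDM6A a normalized log2 ratio of -1.16.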

How the data were processed

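RNA was extracted with a column kit, poly-A selected or ribosome depleted, and made into strand-specific libraries read as 50-base single ends, per the labels' protocols; the selection used for each sample is not given. CASAVA, TopHat and hg19 are named in the submitters' processing notes. The deposited tables give raw counts per gene summed over a hairpin's libraries, and the authors' log2 ratios, z score, p-values and q-values from DEGseq, per the file headers. No source used here names the counter or says whether it used strand. Reads over overlapping IDs were counted under each, as for RPPH1, so column totals exceed assigned reads.

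From the counts, log2 ratios were computed with TMM scaling (edgeR 4.0.16, R 4.3.3) and 2 added counts, and CPM per column total. TMM ratios were 0.03 higher than ratios on column totals. Promoters and biotypes came from RefSeq GRCh38.p14 and GENCODE; 48932 of 55075 IDs matched. DESeq2 1.42.0 was an alternative. The fit across lines was tested on simulated data, and no outcome of that test is given or relied on here. Genes named in the text were the extremes among protein-coding genes with at least 200 counts or 100 CPM, those apart in both lines, and up to 4 members per list. Members and lists were chosen with earlier results of these data known.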

Additional observations from a re-analysis of the deposited data

Results flagged for a closer look

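The following genes were at least 1.5-fold apart in opposite directions in CUTLL1 and CEM, as log2 ratios of shUTX over shRenilla; the difference between the lines was not tested. CDC42BPA, a kinase of the cytoskeleton, was at -0.89 in CUTLL1 but 0.88 in CEM. CUTLL1 had 1.14 and CEM -0.62 for the non-coding gene RP11-449P15.1. RHOU, a small GTPase, had a CUTLL1 ratio of -0.99 and a CEM ratio of 0.67. ADM had 1.06 in CUTLL1 against -0.94 in CEM, and the interferon-stimulated gene IFIT1 had 0.96 against -0.62. Against the remainder of the CUTLL1 control CDC42BPA was at 1.24 and RHOU at 0.47, the same direction as in CEM.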

How the results depend on the processing

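Each hairpin had 1 pooled value, so counting intervals are the only error within CUTLL1, and leaving out single replicates was not possible. No paired analysis was possible because the columns pool the replicates and carry no replicate number. The control column moved most results. The count of genes 2-fold higher was 264 against the larger control column, 1725 against the remainder, 786 with a minimum of 10 counts and 43 with 200; the count lower was 2510, 3272, 442 and 8 in the same order, and 16 among protein-coding genes alone. KDM6A was at -0.95 against the remainder. Against the larger column and the remainder, the MYC list median was -0.62 and -0.81 with 24 and 31 members lower. The glycolysis median was 0.59 and 1.09 (0.45 on column totals), with 16 members higher against the remainder and 3 lower against each. The hypoxia median was 0.95 and 2.15 with 24 and 28 members higher and 1 lower against each. The immediate early median was 0.47 and 0.96 over the members measured there with 15 and 21 members higher and 1 lower against each. Of 43 list medians 13 changed sign against the larger column and 15 against the remainder, where 10 of them were within 0.1 of 0 at first: NOTCH machinery, NOTCH targets, T cell identity, T lineage factors, tumour suppressors, mitosis, G1, BCL2 family, interferon and tRNA synthetase genes (0.10 to 0.49 against the remainder). Those further from 0 were MHC class I (0.30 against the remainder), the 2 fibroblast markers (4.23), B markers (0.16 and 1.21 against the larger column and the remainder), cytosolic ribosomal proteins (-0.55 and -1.29 over the members measured there) and mitochondrially encoded mRNAs (-1.0 and -1.97). The HOX median was -0.24 with a minimum of 200 counts. Of the 216 named genes 18 changed sign against the larger column, all within 1.5-fold, and 51 against the remainder, 24 of which were past 1.5-fold against the smaller column: LFNG (-0.21), SH3PXD2B (-0.93), CCNE1 (-0.06), STAT5A (-0.20), EXD3 (0.18), CCR8 (0.54), HEY2 (0.20), SMAD7 (4.41), DLL1 (2.37), SMAD5 (5.76), JAK3 (2.74), PTGER3 (0.54), ACSL5 (0.47), SUSD3 (2.01), FAS (0.83), CDC42BPA (1.24), MBP (0.75), NEGR1 (1.72), TMEM158 (0.76), LDOC1L (6.71), RHOU (0.47), RIMBP2 (0.95), SDC4 (4.46) and TNFRSF10A (0.26). The other 27 were within 1.5-fold, GAPDH, TPI1, PGAM1, HEY1 and HES4 among them, and the cause was not tested. Scaling by DESeq2, by column totals or by protein-coding genes and a prior count of 0.5 gave 102 to 119 genes higher and 36 to 51 lower. Across lines DESeq2 called 4 genes and the fit on 4 columns 16, against 0 in the 6-column edgeR fit, without a filter and with the larger control.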

Other observations

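Other gene groups held a few members apart. Among 32 integrin, adhesion and migration genes 4 were 1.5-fold higher in CUTLL1 shUTX cells and none lower: the integrin subunit ITGB3 (0.81), S100A10 (0.75), the tetraspanin CD9 (0.72) and ANXA1 (0.60). The share over all genes was 3.47%, and against the remainder ITGB3 and ANXA1 were at 0.15 and 0.08. Among 16 chemokine and S1P receptors GPR183 was at 0.94, against CXCR3 at -1.34 and CCR8 at -0.66 (0.54 against the remainder). Among 21 TGF-beta genes LTBP1 was at 0.77, and SMAD5 and SMAD7 at -0.73 and -0.68; the remainder held 0 and 3 counts of SMAD5 and SMAD7, and their ratios there were 5.76 and 4.41. In the JAK-STAT list STAT5A was at 0.73 and JAK3 at -0.78 (-0.20 and 2.74 against the remainder), and in the PI3K list the inhibitor genes DDIT4 and PIK3IP1 were at 0.74 and 0.63. None of 32 amino acid and ER stress genes, 29 cholesterol and fatty acid genes, 23 oxidative defence genes or 85 nuclear respiratory chain genes was 1.5-fold apart. Replication-dependent histone RNAs took 5.62% of the shUTX counts and 5.32% of the shRenilla counts in CUTLL1, against 0.0307% and 0.0252% in CEM.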
